A study of Mus musculus with 47 samples.

Results

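The 10 genes described here encode ZMYND8 and the chromatin proteins it is known to work with: the KDM5 demethylases (Kdm5a, Kdm5b, Kdm5c), the LSD1 complex (Kdm1a, Rcor1), the NuRD enzymes (Chd4, Hdac1, Hdac2) and the zinc finger protein Zfp687. They were picked as a named set of genes, with no threshold on a measured value. All 10 were found by gene symbol among the 51912 genes of the bone marrow-derived macrophage (BMDM) tables and the 23772 genes of the widest Raw264.7 table. They were followed through the 12 RNA-seq libraries of the series, and the other 35 of its 47 samples were not analysed here.

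ZMYND8 is a chromatin reader that binds modified histone tails through a PHD finger, a bromodomain and a PWWP domain, and it recruits repressive enzymes through its MYND domain. The KDM5 enzymes remove di- and trimethylation from lysine 4 of histone H3, while LSD1, the product of Kdm1a, removes mono- and dimethylation from the same residue when held on chromatin by CoREST, the product of Rcor1. NuRD couples the nucleosome remodeller CHD4 to the deacetylases HDAC1 and HDAC2. In macrophages, methylated lysine 4 of histone H3 and histone acetylation mark the enhancers that open after bacterial stimulation.

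BMDMs were grown with 20 ng/ml M-CSF for 5 days from bone marrow of mice labelled C57BL/6. WT mice were littermates with the floxed Zmynd8 alleles (Zmynd8 fl/fl) and no Cre. In Zmynd8 cKO mice, Cre under the Lyz2 promoter, active in macrophages and other myeloid cells, removed the floxed exons 6 and 7. BMDMs of both genotypes received nothing (NT, labelled M0), LPS from the bacterial outer membrane at 100 ng/ml (M1) or the cytokine IL-4 at 20 ng/ml (M2), both for 6 h. The material of 3 biological replicates was pooled per BMDM library, which leaves 1 library for each condition and no replicate check on any difference. A gene was therefore called by its fold alone, at 1.2 or more in either direction, and no p-value is printed. Exact binomial tests on the reads, which compare libraries and not conditions, were run as an alternative only. Fold changes are on log2(CPM + 1), where CPM is a count scaled to 1000000 in its library, and the limits printed with them are 95% Clopper-Pearson limits on the ratio of the counts, which cover counting error only, since PCR copies are not independent molecules. In bulk RNA, fewer cells of a type and less RNA per cell cannot be told apart.

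The other 6 libraries are labelled Raw264.7, a macrophage-like line established from a male mouse tumour. Zmynd8 KO cells were made with CRISPR, and either WT Zmynd8 or the D/E-A mutant, in which acidic residues were changed to alanine, was put back with a retroviral vector. The labels give no treatment for these 3 libraries, while the study's text describes the RNA of the WT Zmynd8 and D/E-A cells as taken after LPS. p65 KO cells, WT p65 put back and the acetylation-site mutant K122R put back are all labelled LPS. The header of the column read as WT p65 gives wild-type Raw264.7 and LPS without any mention of p65 KO. Whether a line was 1 clone is not given in the sources used here, and each line has 1 library. Fold changes between lines are on log2(deposited value + 1), and reads were recovered from the steps of those values.

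The BMDM libraries held 22597408 to 28386612 estimated counts and the libraries labelled Raw264.7 held 15127110 to 21042628 reads. The 8 macrophage markers (Adgre1, Csf1r, Cd68, Itgam, Cd14, Fcgr1, Mertk, Lyz2) all exceeded 3 counts in the BMDM libraries and summed to 8750 to 20500 TPM (a level per length, scaled to 1000000 in a library). Lyz2, the locus that carries Cre, was lower in cKO than in WT cells in each condition. Without it the other 7 summed to 5980 TPM in WT and 6098 TPM in cKO in NT. They summed to 4870 and 4891 TPM after LPS, and 5524 and 5688 TPM after IL-4. In NT, Cd68 alone gave 3862.87 TPM in WT and 4468.03 TPM in cKO cells. Cd68 and Cd14 were higher in cKO than in WT there, while Adgre1, Csf1r, Itgam, Fcgr1 and Mertk were lower. The 8 neutrophil markers summed to 11.6 to 21.7 TPM in the NT and LPS libraries, but to 1290 TPM in WT and 1830 TPM in cKO cells after IL-4. Each condition was deposited in a table of its own, with the WT and cKO library side by side, and the IL-4 libraries carry sample numbers apart from those of the other 4. Markers of dendritic cells (0.34 to 8.70 TPM), B cells (0.94 to 24.2 TPM), T cells (at most 0.07 TPM) and fibroblasts (0.07 to 1.53 TPM) summed to low levels in BMDMs.

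The 2 sets of lines stood apart from each other, and the Zmynd8 lines went against their label in sex chromosome genes. Xist, the RNA of the silenced X chromosome of female cells, had 7109 to 8467 reads in the 3 Zmynd8 lines and 0 to 3 reads in the 3 p65 lines. Ddx3y, on the Y chromosome, had 400 to 1810 reads in the p65 lines, and 0 and 1 read in the Zmynd8 KO and WT Zmynd8 libraries. The neutrophil markers summed to 4420 to 10400 CPM in the Zmynd8 lines and to 0.180 to 0.319 CPM in the p65 lines, where 3 of the 8 were listed. Among macrophage markers, Mertk stood farthest apart, with 943 to 1794 reads in the Zmynd8 lines and 2 to 4 reads in the p65 lines. Adgre1, Csf1r, Fcgr1 and Lyz2 also had higher CPM in each Zmynd8 line than in each p65 line. Cd68, Cd14 and Itgam overlapped between the sets. B cell markers summed to 119 to 161 CPM in the Zmynd8 lines and 0.575 to 1.68 CPM in the p65 lines. The 3 Zmynd8 libraries are therefore called by their labels below, and values from the line sets are not read as a difference between genotypes.

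Zmynd8 itself (chr2:165784152-165898981 in mm10, minus strand) was not lower in all the cKO libraries. Estimated counts were 2284 in WT NT, 1842 in cKO NT, 1967 in WT LPS, 2033 in cKO LPS, 3636 in WT IL-4 and 3944 in cKO IL-4. Divided by library totals, the cKO library stood below WT in NT and above it after LPS and after IL-4. The log2 fold change of cKO over WT was -0.10 in NT (limits -0.19 to -0.01), 0.13 after LPS (0.05 to 0.23) and 0.24 after IL-4 (0.17 to 0.30), each within the 1.2-fold line, which lies at 0.26 on the log2 scale. The NT value moved with the processing, to -0.42 with the deposited TPM, past the line, and to 0.25 among genes of like length. A count over the whole gene does not separate the reads of the floxed exons from the others. The sixth and seventh exons were taken by position in the 52 RefSeq protein-coding transcripts of Zmynd8 with at least 7 exons. Together they made up 2.46% to 9.42% of the transcript, with a median of 3.59%. Their sizes differed, so they are not the same exons in all 52, and the floxed pair was not matched to a transcript. Any effect of the deletion on the level of the remaining transcript was not tested. The genotype of these libraries was thus not checked by their Zmynd8 counts.

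The same check was possible in part in the lines. In the Zmynd8 KO library, the deposited Zmynd8 value was 116, beside 506 in the WT Zmynd8 library of the same table. The value of 116 corresponded to 121.5 reads, and it was the 1 value of that library which was not a whole number of reads (within 0.02 of a read), so no fold was taken from it. WT Zmynd8 and D/E-A libraries held 485 and 497 Zmynd8 reads, a log2 fold change of 0.10 on the deposited values (limits -0.08 to 0.29). Rela, which encodes p65, had 765 reads in p65 KO, 1601 in WT p65 and 5850 in K122R cells. On the deposited values Rela was 1.02 lower on the log2 scale in p65 KO cells (a log2 fold change of -1.02, limits -1.14 to -0.89) and 1.92 higher in K122R cells (1.84 to 2.01) than in WT p65 cells.

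The guide sequences are shown because they define the lines. Each is written 5′ to 3′ without the cloning overhang of its oligonucleotide, and capitals mark the PAM, which was read from the genome.
sgP65: cgattccgctataaatgcgaGGG
sgZMYND8: gtgatgtgtcctgcggcgag
The sgP65 spacer had 1 exact match in GRCm38, at chr19:5638613-5638632 on the plus strand, in coding exon 3 of all 4 RefSeq transcripts of Rela, with GGG following it. The sgZMYND8 spacer had 0 exact matches on either strand in the 239 sequences of GRCm38 or in 141767 GENCODE transcripts, and the closest 20-base windows in Zmynd8 differed from it at 5 bases. No PAM is therefore shown for it.

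Per length, Chd4 and Hdac1 were the most abundant of the 10 genes in BMDMs and Kdm5b, Zfp687 and Kdm5a the least. Over the 6 libraries, Chd4, the NuRD remodeller, ranged from 36.49 to 113.02 TPM with a median of 70.0 TPM, and the deacetylase gene Hdac1 from 42.87 to 104.87 TPM with a median of 53.6 TPM. Kdm5c, Zmynd8 and Hdac2 had close medians of 31.1, 30.6 and 30.1 TPM. Their ranges were 20.92 to 41.28 TPM for Kdm5c, 23.24 to 48.49 TPM for Zmynd8 and 7.42 to 34.63 TPM for Hdac2, so Hdac2 had the widest of the 3.

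Kdm1a had a median of 20.7 TPM and the smallest ratio of highest to lowest level among the 10 genes, 1.35. Rcor1, its CoREST partner, had a median of 12.4 TPM and a ratio of 2.71. Kdm5a varied most by this ratio, from 3.50 TPM in cKO NT to 17.96 TPM in WT IL-4, a ratio of 5.13. Zfp687 and Kdm5b had medians of 6.79 and 5.30 TPM. In this order by median, the ranges of neighbouring genes overlapped in 8 of 9 pairs, and Hdac1 and Kdm5c were the exception.

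**Figure D1:**
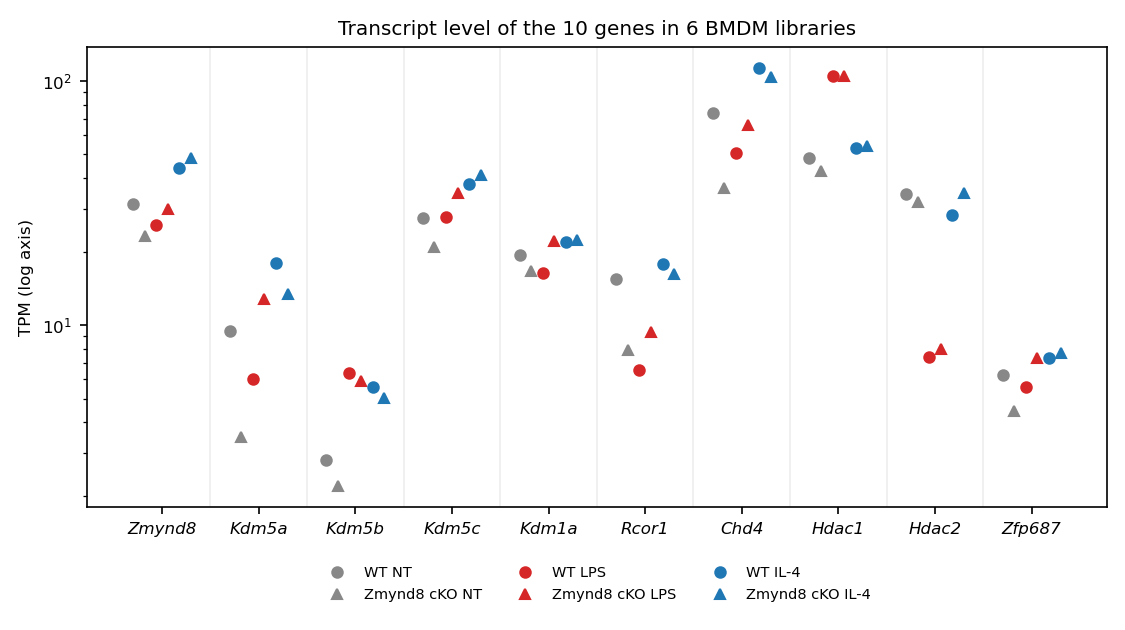
TPM of the 10 genes (log axis) in the 6 BMDM libraries, each point 1 library, circles WT and triangles Zmynd8 cKO, grey NT, red LPS and blue IL-4. Both LPS libraries lie below the other 4 for Hdac2 (7.42 and 7.96 TPM) and above them for Hdac1 (104.87 and 104.60 TPM).

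In untreated BMDMs, 5 of the 10 genes were called lower in Zmynd8 cKO than in WT and 0 were called higher. Of all 12463 genes tested, 54.0% were called in either direction, 25.0% higher and 29.0% lower, so a count of 5 of 10 is near this background. The 3 KDM5 genes, Rcor1 and Chd4 were the genes called. Zmynd8, Kdm1a, Hdac1, Hdac2 and Zfp687 stayed within 1.2-fold, between -0.18 and 0.07 on the log2 scale.

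Kdm5a (chr6:120364099-120444574, plus strand), an H3K4 demethylase gene, had 1155 counts in WT and 483 counts in cKO cells, or 44.1 and 21.4 CPM. That is a log2 fold change of -1.01 (limits -1.20 to -0.89), with 2.77% of all tested genes lower still. Rcor1 (chr12:111038691-111115901, plus strand) had 56.4 CPM in WT and 34.6 CPM in cKO cells, a log2 fold change of -0.69 (-0.83 to -0.58). Chd4 (chr6:125095986-125130591, plus strand) had 297 CPM in WT and 189 CPM in cKO cells, a log2 fold change of -0.64 (-0.70 to -0.59). The limits of these 3 genes lay wholly past the 1.2-fold line. Kdm5c, at -0.34 (-0.43 to -0.26), and Kdm5b, at -0.31 (-0.57 to -0.11), had limits that reached back to it.

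The NT comparison ran with transcript length over the whole table. Among all tested genes, the median log2 fold change of cKO over WT in NT was 0.30 for genes under 2 kb in listed length, -0.02 for genes of 2 to 5 kb and -0.38 for genes over 5 kb. The 5 genes called are all longer than 5 kb, from Rcor1 at 5684 bases to Kdm5a at 10944 bases. Zmynd8 (6188 bases) and Zfp687 (5208 bases) are also longer than 5 kb and were not called. Among the 5 called, the size of the difference did not follow length. When each gene was compared with the median of the tested genes closest to it in length, a comparison added after the data were seen, Kdm5a (-0.47) and Rcor1 (-0.38) were still past 1.2-fold. Chd4 (-0.24), Kdm5c (0.02) and Kdm5b (0.19) were not, and the last 2 changed sign. The part of length, and of the RNA or library properties that go with it, in the Zmynd8 cKO difference was not tested.

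**Figure D2:**
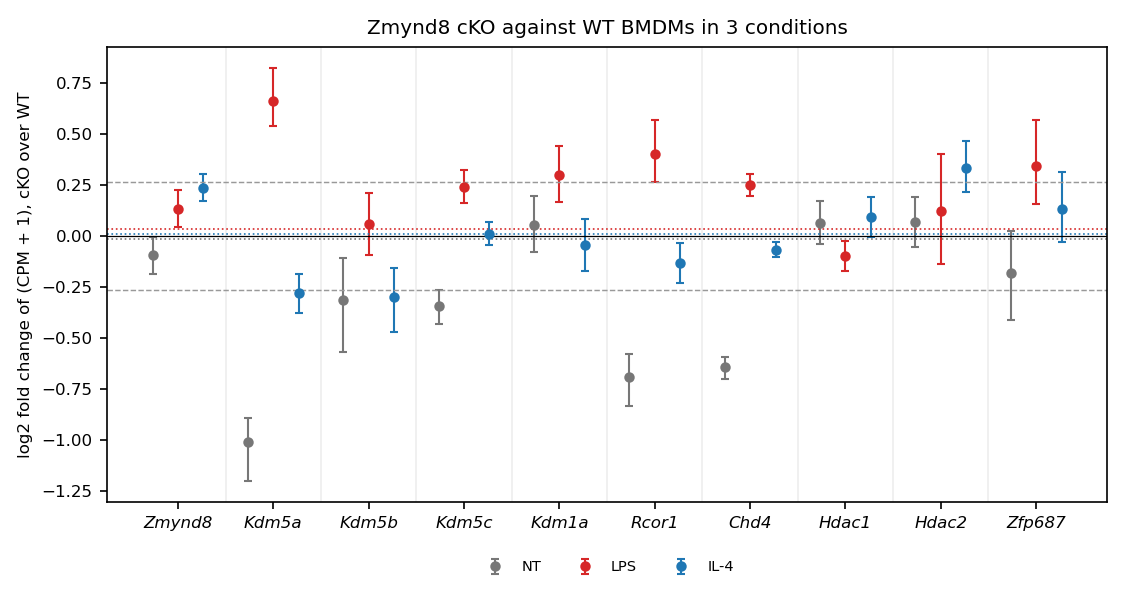
log2 fold change of CPM plus 1, Zmynd8 cKO over WT, for the 10 genes in NT (grey), LPS (red) and IL-4 (blue), with 95% limits on the reads as bars, dashed lines at the 1.2-fold line and dotted lines at the median of all genes tested. Kdm5a and Rcor1 lie below the lower dashed line in NT and above the upper one after LPS.

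After LPS, 4 of the 10 genes were called higher in Zmynd8 cKO than in WT and 0 were called lower. The background was 35.9% of 12386 genes in either direction, 22.6% higher and 13.3% lower. Kdm5a had 677 counts in WT and 1021 in cKO cells, or 27.2 and 43.6 CPM, a log2 fold change of 0.66 (limits 0.54 to 0.82), and 97.1% of tested genes lay below it. The others were Rcor1 at 0.40 (0.26 to 0.57), Zfp687 at 0.34 (0.16 to 0.57) and Kdm1a at 0.30 (0.17 to 0.44). Kdm1a, the LSD1 gene, stood at 32.7 CPM in WT and 40.4 CPM in cKO cells.

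Kdm5c at 0.24 and Chd4 at 0.25 came close to the line after LPS, and Hdac1 was the 1 gene below 0, at -0.10 (limits -0.17 to -0.03). Length ran the other way from NT, with all-gene medians of -0.09 under 2 kb, 0.03 at 2 to 5 kb and 0.22 over 5 kb. Set against genes of like length, Kdm5a and Kdm1a, both at 0.31, were past 1.2-fold, and Rcor1 (0.24) and Zfp687 (0.19) were not. Kdm1a was inside the line under the median ratio (0.24), which left 3 of the 10 higher, and narrowly so under TMM.

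After IL-4, 1 of the 10 genes was called higher in Zmynd8 cKO than in WT, and 2 were called lower, against 30.7% of 13245 genes in either direction, 17.3% higher and 13.4% lower. The 1 higher was Hdac2, with 34.5 CPM in WT and 43.6 CPM in cKO cells, a log2 fold change of 0.33 (limits 0.21 to 0.46). The 2 lower were Kdm5b at -0.30 (-0.47 to -0.16) and Kdm5a at -0.28 (-0.38 to -0.19). Kdm5c, Kdm1a, Chd4 and Hdac1 were all within 0.10 of 0. The neutrophil markers summed to 1290 TPM in WT and 1830 TPM in cKO cells, and their part in these differences was not tested. The length medians were flat here, from 0.05 to -0.04, and Hdac2 remained past 1.2-fold among genes of like length (0.33) while Kdm5a (-0.21) and Kdm5b (-0.23) did not.

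**Figure D3:**
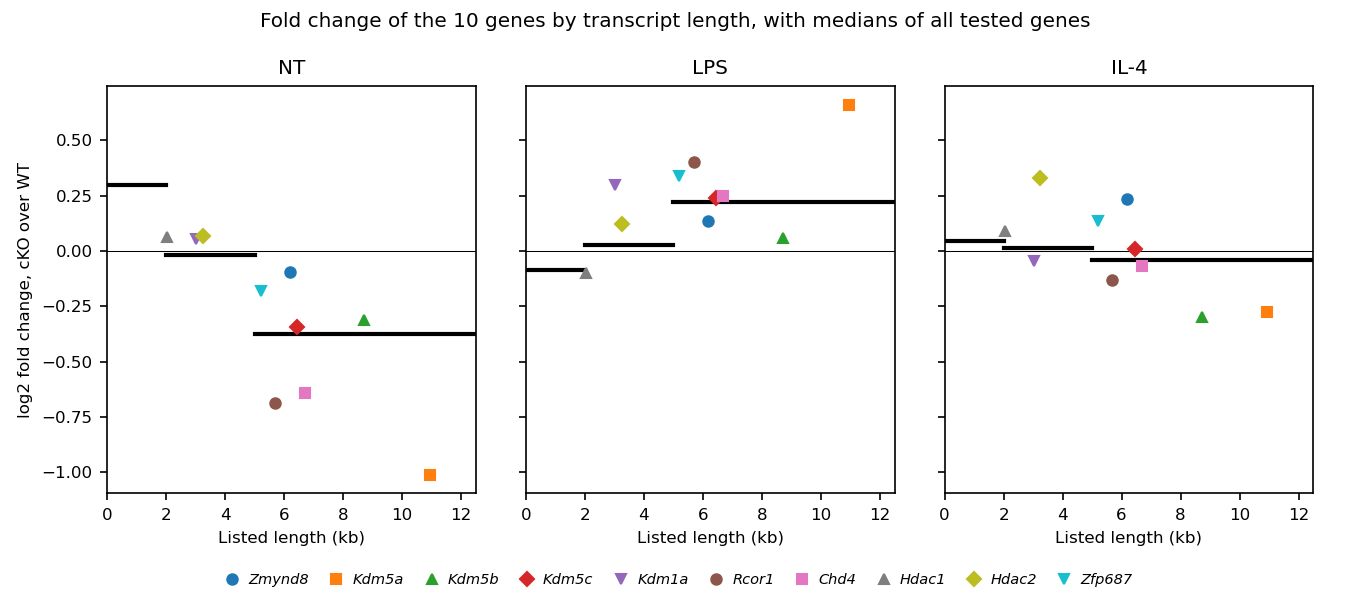
log2 fold change of CPM plus 1, Zmynd8 cKO over WT, against listed transcript length in kb for the 10 genes (coloured symbols) in NT, LPS and IL-4, with black bars at the median of all tested genes under 2 kb, of 2 to 5 kb and over 5 kb. The bars fall from 0.30 to -0.38 in NT, rise from -0.09 to 0.22 after LPS and are nearly level after IL-4.

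Across the 3 conditions, Kdm5a had the widest span of the 10 genes, from -1.01 in NT to 0.66 after LPS. Hdac1 stayed within -0.10 to 0.09 and Zmynd8 within -0.10 to 0.24. The 3 comparisons use 6 different libraries, and no test of the difference between conditions could be made with 1 library in each.

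LPS moved 3 of the 10 genes by about 2-fold or more in both genotypes. Hdac2 (chr10:36974544-37001889, plus strand), one of the paired NuRD deacetylase genes, had 1140 counts in WT NT and 1031 in cKO NT, but 226 in WT LPS and 233 in cKO LPS. The 2 LPS libraries lay far below the 4 others, which held 978 counts or more. Its log2 fold change of LPS over NT was -2.14 in WT (limits -2.47 to -2.05) and -2.09 in cKO cells (-2.41 to -1.99), or 4.42-fold and 4.26-fold lower.

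Hdac1 (chr4:129516104-129542646, minus strand), its paralogue, went the other way. It had 1569 counts in WT NT and 1416 in cKO NT, and 3373 in WT LPS and 2963 in cKO LPS. Its log2 fold change was 1.16 (1.09 to 1.27) in WT and 1.00 (0.92 to 1.11) in cKO cells. Kdm5b (chr1:134560178-134632878, plus strand), the KDM5 gene with the lowest level, had 388 and 265 counts in WT and cKO NT and 740 and 725 counts after LPS, with log2 fold changes of 0.96 (0.83 to 1.19) and 1.33 (1.19 to 1.61). The direction of Hdac2, Hdac1 and Kdm5b was the same under each scaling tried.

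**Figure D4:**
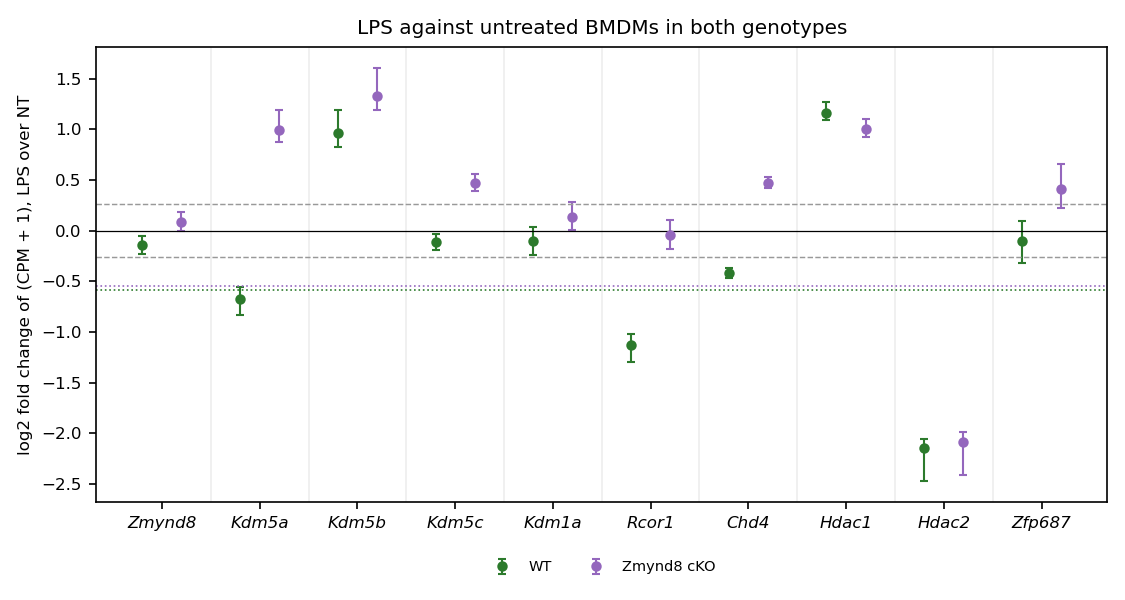
log2 fold change of CPM plus 1, LPS over NT, for the 10 genes in WT (green) and Zmynd8 cKO (purple) BMDMs, with 95% limits on the reads as bars, dashed lines at the 1.2-fold line and dotted lines at the median of all tested genes (-0.58 and -0.55). Hdac2 lies at about -2 and Hdac1 and Kdm5b near or above 1 in both genotypes.

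In WT cells, 2 of the 10 genes were called higher after LPS and 4 lower, and in cKO cells 6 were called higher and 1 lower. The background was 84.8% of 12813 genes in WT (21.7% higher, the others lower) and 85.5% of 12666 genes in cKO cells (25.0% higher and 60.5% lower). The median of all tested genes stood at -0.58 in WT and -0.55 in cKO cells when counts were divided by library totals, and at -0.08 and -0.07 when scaled by the median ratio. Under the median ratio, 6 of the 10 were higher and 2 lower in WT, and 9 higher and 1 lower in cKO cells. Over all calls, 25.6% were higher in WT and 29.3% in cKO cells by library totals, and 46.2% and 47.4% by the median ratio. All-gene medians fell with length in WT, from -0.39 under 2 kb to -0.79 over 5 kb, and rose in cKO cells, from -0.79 to -0.24. Set against genes of like length, 7 of the 10 were higher and 2 lower in WT, and 9 higher and 1 lower in cKO cells. Of all genes, 79.1% in WT and 81.4% in cKO cells were called by the median ratio. Centred on length, 77.7% and 79.2% of all genes were called, and 49.8% and 50.5% of these calls were higher. Hdac2 stood 1.56 below the all-gene median in WT and 1.54 below it in cKO cells on the log2 scale.

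Rcor1 was called lower after LPS in WT, with 56.4 CPM in NT and 25.2 CPM in LPS and a log2 fold change of -1.13 (limits -1.30 to -1.03), and remained lower under the median ratio (-0.54). In cKO cells its log2 fold change was -0.04 (-0.19 to 0.10), or 0.52 under the median ratio. Chd4 was at -0.42 in WT and 0.47 in cKO cells by library totals, but at 0.19 and 1.04 under the median ratio, so its direction in WT depended on the scaling. Kdm5a was at -0.68 in WT and 0.99 in cKO cells, and at -0.09 and 1.56 under the median ratio. Zmynd8 stayed within 1.2-fold by library totals, at -0.14 and 0.09, and stood at 0.46 and 0.66 under the median ratio. These comparisons use the same NT and LPS libraries as those of genotype above, and their values are given side by side only.

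The promoters of Hdac2 and Kdm5b are shown because these are 2 of the 3 genes that LPS moved by about 2-fold or more in both genotypes. Each window runs from 250 bases before to 50 bases after a RefSeq start in GRCm38.p6. Hdac1 and Kdm5a had no window in the table. Capitals mark the letters GGGNNNNNCC on either strand, a loose form of the NF-κB motif, and matches may overlap.
Hdac2, chr10:36974294-36974593, plus strand: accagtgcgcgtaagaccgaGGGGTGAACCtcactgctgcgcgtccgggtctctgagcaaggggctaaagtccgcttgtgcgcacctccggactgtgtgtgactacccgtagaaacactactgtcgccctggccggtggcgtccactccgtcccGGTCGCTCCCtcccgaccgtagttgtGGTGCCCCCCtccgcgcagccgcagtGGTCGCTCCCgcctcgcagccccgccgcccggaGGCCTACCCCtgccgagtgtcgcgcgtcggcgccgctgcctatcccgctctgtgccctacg
Kdm5b, chr1:134559928-134560227, plus strand: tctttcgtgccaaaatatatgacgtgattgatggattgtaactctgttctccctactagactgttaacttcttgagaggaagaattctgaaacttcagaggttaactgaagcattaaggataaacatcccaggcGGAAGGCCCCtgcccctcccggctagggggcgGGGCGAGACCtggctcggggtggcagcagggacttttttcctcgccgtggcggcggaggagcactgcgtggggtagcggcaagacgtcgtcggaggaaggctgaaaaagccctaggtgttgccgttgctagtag
Hdac2 held 5 matches and Kdm5b 2. Of the 8 genes with a window, 6 held a match. These 8 genes had 14 windows, some of them overlapping, of which 11 held a match, and 50.8% of all 32851 promoter windows held one. A match is a description of the letters and does not show binding.

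IL-4 was compared with NT, as LPS was, across 2 deposited tables, and in cells that differed in neutrophil markers as given above. In WT, 6 of the 10 genes were called higher after IL-4 and 1 lower, against a background of 64.4% of 13090 genes, 41.3% higher and 23.1% lower. In cKO cells 7 were called higher and 0 lower, against 70.9% of 12966 genes, 44.7% higher and 26.2% lower. Zmynd8, Kdm5a, Kdm5b, Kdm5c, Chd4 and Zfp687 were called higher in both genotypes, and Rcor1 in cKO cells.

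Zmynd8 went from 87.1 CPM in NT to 128 CPM after IL-4 in WT and from 81.5 to 151 CPM in cKO cells, log2 fold changes of 0.55 (limits 0.48 to 0.63) and 0.88 (0.81 to 0.97). Kdm5a went from 44.1 to 71.4 CPM in WT and from 21.4 to 58.7 CPM in cKO cells, at 0.68 and 1.42. Kdm5c was at 0.76 and 1.11, Kdm5b at 0.87 and 0.88 and Chd4 at 0.61 and 1.19. Kdm1a (0.14 and 0.04) and Hdac1 (0.04 and 0.07) stayed within 1.2-fold in both. Hdac2 was called lower in WT, at -0.33 (-0.46 to -0.21), and was at -0.06 in cKO cells.

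The all-gene median of IL-4 over NT was 0.15 in WT and 0.17 in cKO cells by library totals and 0.00 in both by the median ratio. By the median ratio Zmynd8 was at 0.38 and 0.69, and Zfp687 in WT fell inside the line at 0.14. In cKO cells the all-gene medians also rose with length, from -0.16 under 2 kb to 0.61 over 5 kb. Among genes of like length in cKO cells, Kdm5b (0.11), Rcor1 (0.20) and Zfp687 (0.14) were inside the line, Kdm5a was at 0.54, Kdm5c and Chd4 were at 0.56 and Zmynd8 was at 0.30. The part of the neutrophil markers in these differences was not tested, nor that of the separate tables here and for LPS over NT.

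Zmynd8's own pattern over the 6 BMDM libraries was closest to Incenp, Snd1, Ubp1, Mon1b and Ppp4r1l-ps among the 9932 genes whose counts averaged 100 or more. Likeness was the Euclidean distance between log2(CPM + 1) values centred on each gene's mean, at 0.172 for Incenp and 0.189 for Ppp4r1l-ps. Like Zmynd8, Incenp was highest after IL-4, with 759, 595, 661, 674, 1089 and 1195 counts in WT NT, cKO NT, WT LPS, cKO LPS, WT IL-4 and cKO IL-4. Of the 9 partner genes, Kdm5c was nearest to Zmynd8 at 0.347, in place 78, followed by Zfp687 in place 311 and Chd4 in place 355. Hdac2 was the farthest at 2.10, in place 7664. With TPM, Kdm5c was in place 317, Zfp687 in place 772, Chd4 in place 871 and Hdac2 in place 7817. With 6 libraries that also differ in depth and table, this is a description, and 2 of the 5 nearest genes, Incenp and Mon1b, were the same with TPM.

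Other subunits of the same complexes, and related genes such as Kdm1b, were read from lists. These held 12 NuRD genes, 9 CoREST genes and 3 reader and zinc finger genes (Zfp592, Zfp532, Zmynd11). In NT, 2 of 11 tested NuRD genes were higher and 2 lower in cKO than in WT, and 1 of 9 CoREST genes was higher and 5 lower, with 54.0% of all genes called. CoREST had a median log2 fold change of -0.39 there, beside -0.01 for all tested genes and -0.38 for those over 5 kb. Among genes of like length its median was -0.14, with 1 gene higher and 1 lower. As they stand, its genes ran from Rcor2 at 0.35, with 7 and 14 counts, to Gse1 at -1.08, with 850 and 336 counts. After LPS, 0 of 11 NuRD genes were past 1.2-fold, while 3 of 9 CoREST genes and 2 of the 3 reader and zinc finger genes were higher, with Zmynd11 highest at 0.48 and 35.9% of all genes called. After IL-4, with 30.7% of all genes called, 3 of 12 NuRD genes and 1 of 9 CoREST genes were lower, and Zfp532, with 9 and 17 counts, was higher at 0.33.

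LPS over NT in WT gave 1 NuRD gene higher and 8 of 12 lower, with a median of -0.65 that lay close to the all-gene median of -0.58, and 84.8% of all genes were called. The median ratio put NuRD at a median of -0.05, with 3 genes up and 5 down, and 5 CoREST genes were higher and 2 lower. Rbbp7, a histone-binding NuRD subunit gene, was lowest at -1.88. By library totals 3 genes of the CoREST list were higher and 4 lower, from Rcor2, a CoREST paralogue, at 2.09 to Kdm1b at -1.70. Kdm1b, the LSD2 gene, is a paralogue of Kdm1a kept in this list. In cKO cells Rcor2 and Kdm1b again stood at the ends, at 1.72 and -0.94. Rcor2 had 7 counts in WT NT and 109 in WT LPS, and 14 in cKO NT and 102 in cKO LPS. IL-4 over NT in WT gave 7 NuRD genes higher and 3 lower and 7 CoREST genes higher and 0 lower. Of all genes, 64.4% were called. By the median ratio these were 6 and 3 NuRD genes and 6 and 1 CoREST genes. In cKO cells, with 70.9% of all genes called, 5 NuRD genes were higher and 3 lower and 5 CoREST genes higher and 0 lower. The median ratio gave 4 and 5 NuRD genes and 4 and 0 CoREST genes there. Chd3, a paralogue of Chd4, was the highest NuRD gene in both genotypes at 1.79 and 2.03, and Mbd2, a methyl-CpG reader gene, was the lowest in both at -0.71 and -0.61.

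Between the sets of lines labelled Raw264.7, 8 of the 10 genes had higher CPM in each p65 line than in each Zmynd8 line. The background was 47.8% of the 12081 genes listed in all 6 libraries with a mean of at least 10 reads. Zmynd8, among the 8, was compared without the Zmynd8 KO library, whereas the background used all 6 libraries for each gene. In either direction, 74.6% of genes did not overlap between the sets, and 26.7% were lower in the p65 lines. Hdac2 had 90.6 to 127 CPM in the p65 lines and 18.6 to 25.1 CPM in the Zmynd8 lines, Rcor1 had 90.7 to 112 CPM and 20.7 to 33.4 CPM, and Zmynd8 had 64.2 to 117 CPM and 26.4 to 27.7 CPM without the Zmynd8 KO library. Hdac1 and Kdm5b overlapped between the sets. Lines, sex chromosome genes and neutrophil markers differ together between the sets and cannot be told apart.

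Per length (RPKM, CPM divided by the length in kilobases), Chd4 and Hdac1 again had the highest medians over these libraries, at 55.7 and 44.2 RPKM, and Kdm5b the lowest at 2.34 RPKM. Hdac1 ranked first in each Zmynd8 line and Chd4 in each p65 line. Kdm5c, which lies on the X chromosome, had 96.1 to 161 CPM in the Zmynd8 lines and 185 to 289 CPM in the p65 lines. Its Y-linked counterpart Kdm5d had 104 reads in WT p65, 469 in K122R and 207 in p65 KO cells, and 0 and 2 reads in Zmynd8 KO and WT Zmynd8 libraries. In BMDMs, Kdm5d had 3 to 9 counts and Ddx3y 0 in each library.

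**Figure D5:**
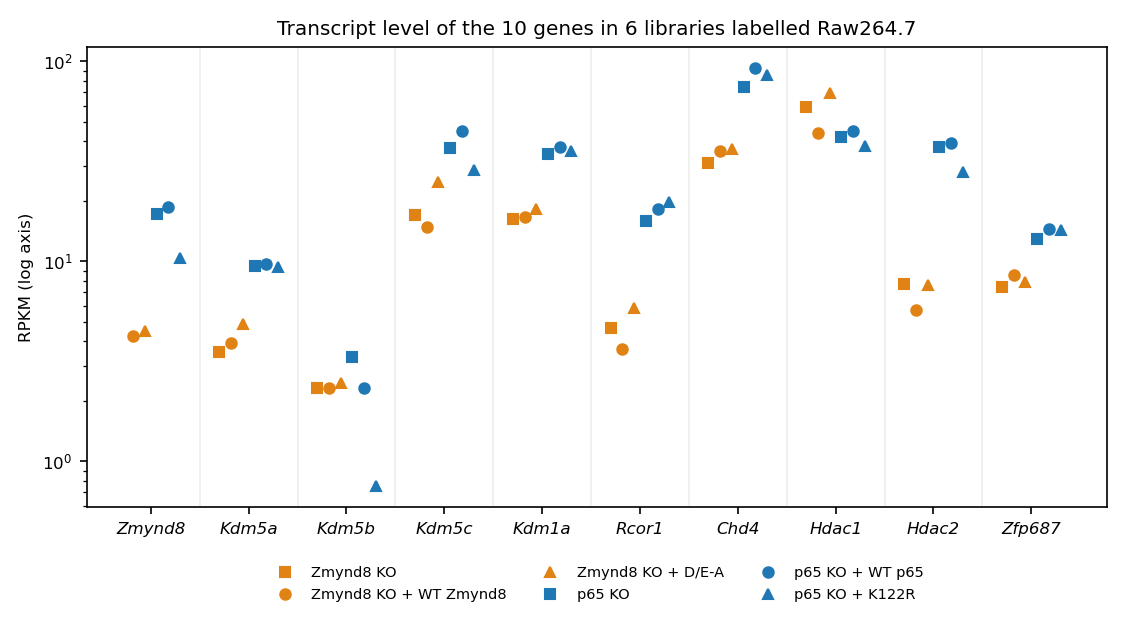
RPKM of the 10 genes (log axis) in the 6 libraries labelled Raw264.7, each point 1 library, orange the Zmynd8 lines and blue the p65 lines. The blue points lie above the orange points for each gene but Kdm5b and Hdac1, and Zmynd8 has no point for Zmynd8 KO.

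With the D/E-A mutant in place of WT Zmynd8, 5 of the 10 genes were called higher and 0 lower, against a background of 72.6% of 12771 genes, 36.7% higher and 35.9% lower. Deposited values in WT Zmynd8 and D/E-A were 1727.4 and 2947.8 for Kdm5c, 371 and 613 for Rcor1, 1601.3 and 2608.0 for Hdac1 and 335 and 453 for Hdac2. The log2 fold changes were 0.77 (limits 0.69 to 0.86), 0.72 (0.54 to 0.91), 0.70 (0.61 to 0.79) and 0.44 (0.23 to 0.64), and Kdm5a was at 0.35 (0.21 to 0.48). Chd4, Kdm1a, Kdm5b, Zfp687 and Zmynd8 were between -0.09 and 0.15.

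All-gene medians ran with length here too, from -0.48 under 2 kb to 0.49 over 5 kb. Among genes of like length, Hdac1 (0.84), Hdac2 (0.32) and Rcor1 (0.30) were higher, Kdm5c (0.23) was inside the line, and Chd4 (-0.50), Zfp687 (-0.47), Kdm5b (-0.44) and Zmynd8 (-0.41) were lower. The 18S ribosomal entry Rn18s-rs5 took 13.7% of reads in WT Zmynd8 and 6.50% in D/E-A, the neutrophil markers summed to 10400 and 4420 CPM, and the macrophage markers to 4980 and 9450 CPM. Their part in the difference was not tested. With library totals that leave out Rn18s-rs5, the all-gene median was -0.12 beside 0.02 with the deposited scaling, and 4 of the 10 genes were higher and 0 lower. The share of higher among all calls was then 40.3%, beside 50.5%.

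Zmynd8 KO was compared with WT Zmynd8 for the 9 partner genes, of which 4 were called higher and 0 lower. The background was 70.3% of 21302 genes, 33.8% higher and 36.5% lower. By library totals of the reads, on log2(CPM + 1), 47.9% of all genes were called, with 3 of the 9 higher and 0 lower. Both backgrounds hold genes down to a mean deposited value of 1, far below the values of the 9 genes. Reads in WT Zmynd8 and Zmynd8 KO were 1639 and 2533 for Hdac1, 343 and 529 for Hdac2, 380 and 558 for Rcor1 and 1768 and 2327 for Kdm5c. The log2 fold changes were 0.51 (0.42 to 0.60), 0.50 (0.31 to 0.70), 0.43 (0.24 to 0.63) and 0.28 (0.19 to 0.37). Among genes of like length 2 were higher, Hdac1 (0.49) and Hdac2 (0.34), and 2 lower, Chd4 (-0.40) and Zfp687 (-0.36), while Kdm5c (0.03) and Rcor1 (0.22) were inside the line. As they stand, Chd4 was at -0.13, Zfp687 at -0.12, and Kdm5a, Kdm5b and Kdm1a within 0.10 of 0. The neutrophil markers summed to 6970 CPM and the macrophage markers to 6390 CPM in Zmynd8 KO. This comparison and that of D/E-A use the same WT Zmynd8 library.

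Among the members' fold changes between lines, Kdm5b in K122R cells had the largest, with Zmynd8 in Zmynd8 KO left out because its value was no whole number of reads. In K122R against WT p65, 1 of the 10 genes was called higher and 4 lower, against 63.3% of 19670 genes, 30.8% higher and 32.5% lower. Kdm5b had 319 reads in WT p65 and 109 in K122R cells, a log2 fold change of -1.49 (limits -1.82 to -1.18). Zmynd8 had 1826 and 1070 reads and was at -0.72 (-0.83 to -0.61), Kdm5c was at -0.50 (-0.57 to -0.44) and Hdac2 at -0.35 (-0.44 to -0.25). Rcor1 sat at the line with 0.26 (0.17 to 0.36) and was inside it by library totals, which left 0 of the 10 higher and 4 lower. Kdm1a, Kdm5a, Chd4, Hdac1 and Zfp687 were between -0.09 and 0.13. Length medians were flat, from 0.03 to -0.03. By library totals of the reads, 44.6% of all genes were called. Of all calls, 48.6% were higher with the deposited scaling and 31.3% by library totals.

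In p65 KO against WT p65, 1 of the 10 genes was called higher and 2 lower, against 51.9% of 19879 genes, 26.3% higher and 25.7% lower. By library totals of the reads, on log2(CPM + 1), 30.0% of all genes were called, with the same counts of 1 and 2 for the 10 genes. Kdm5b had 319 reads in WT p65 and 440 in p65 KO cells, a log2 fold change of 0.51 (limits 0.30 to 0.73). Chd4 was at -0.31 (-0.36 to -0.27) and Kdm5c at -0.29 (-0.36 to -0.23). Set against genes of like length, Chd4 (-0.20) and Kdm5c (-0.19) were inside the line and Kdm5b (0.68) was past it. The other 7, Zmynd8 at -0.12 among them, stayed between -0.19 and -0.04. Kdm5b thus had its lowest RPKM of the 6 lines in K122R (0.751) and its highest in p65 KO (3.34), with WT p65 at 2.34 shared by both comparisons.

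The lists gave 3 calls among 24 genes in p65 KO, against 51.9% of all genes, and 12 of 24 in K122R, against 63.3%. The all-gene shares were 30.0% and 44.6% by library totals of the reads, so they depend on the scale. In p65 KO, 1 of 12 NuRD genes (Mbd3, highest at 0.45), 1 of 9 CoREST genes (Rcor2, 0.63, with 143 and 214 reads) and 1 of the 3 reader and zinc finger genes (Zfp532, with 3 and 4 reads) were higher and 0 were lower. In K122R, 4 NuRD genes were higher and 3 lower, with Rbbp7 lowest at -0.95. In the same cells 3 CoREST genes were higher, with Gse1 at 0.60, and 2 reader and zinc finger genes were lower. Of the last, Zfp532 had 3 and 1 reads. In D/E-A, against 72.6% of all genes, 7 of 11 NuRD genes were higher and 1 lower. They ran from Mbd2 at 0.91 to Mbd3, its paralogue, at -0.92. In Zmynd8 KO, 5 of 12 NuRD genes were higher and 2 lower, Chd5 among the latter with 7 and 2 reads. The background there was 70.3% of all genes, or 47.9% by library totals of the reads. Set against genes of like length, 5 NuRD genes were higher and 2 lower in D/E-A, and 2 higher and 3 lower in Zmynd8 KO.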

How the data were processed

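RNA-seq was taken from 12 libraries, 6 from BMDMs in 3 tables and 6 labelled Raw264.7 in 4 tables. For BMDMs, the authors used TopHat with the mm10 transcriptome, and they deposited 2 values per gene and library, an estimated count and a TPM. The methods name Cuffdiff, the tables are named for DEGseq, and the submitters' notes also list CASAVA 1.4, Bowtie 0.12.2, mm8 and mm10. For the lines, the authors deposited a signal value per gene and library, whose steps gave whole reads (within 0.02) for 100% of values, or 100% but 1 (Zmynd8) in Zmynd8 KO. How these values were scaled is not given in the sources used here. Columns of the authors' fold changes and p-values were not used, nor were 2 unlabelled columns of per-sample values. Entries that were no gene numbered 431, 431 and 2 in the BMDM tables and held no counts.

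Estimated counts were rounded and divided by library totals, and log2 fold changes were taken on CPM plus 1. Genes averaging under 10 counts over both libraries were left out. For the lines they were taken on the deposited value plus 1 within a table, leaving out genes averaging under 1. The design foresaw this rule for tables without counts. Listed lengths come from the IL-4 table, and RPKM was computed with them from the recovered reads. Called means a fold of at least 1.2 between 2 libraries, with no p across genes, in 7 BMDM and 4 line comparisons. Limits are 95% Clopper-Pearson limits.

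The named genes are the 10 members, Rela, the highest and lowest gene of each list, the 5 genes nearest the Zmynd8 profile, and Xist, Kdm5d and Y-linked genes. The members and lists were chosen with earlier results of these data known. Alternatives were a pseudocount of 0.1, no filter, median ratio, TMM, adding to the fold an adjusted p under 0.05 by exact binomial tests of the reads, a fold of at least 1.5, TPM, and, added later, centring on length and totals without Xist, Lyz1 and Lyz2 or without Rn18s-rs5. The steps were tested on simulated data. Tools were Python 3.11.15, numpy 2.4.6, pandas 2.3.3, scipy 1.17.1, matplotlib 3.10.9, R 4.3.3 and edgeR 4.0.16 for TMM. Guide sequences come from the study's oligonucleotide list, and promoters from RefSeq (GRCm38.p6), in which 8 of 10 genes matched.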

Additional observations from a re-analysis of the deposited data

Results flagged for a closer look

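Kdm5a and Rcor1 stood on opposite sides of the 1.2-fold line in NT and after LPS. For Kdm5a, the log2 fold change of cKO over WT was -1.01 in NT and 0.66 after LPS, a difference of 1.67, and it was -0.28 after IL-4, a difference of -0.94 from LPS. For Rcor1 the values were -0.69 in NT and 0.40 after LPS, a difference of 1.09. With 1 library in each group the difference between conditions was not tested.

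The same libraries, read as LPS over NT within a genotype, gave Kdm5a at -0.68 in WT and 0.99 in cKO cells, a difference of 1.67, and Chd4 at -0.42 in WT and 0.47 in cKO cells, a difference of 0.89. These are not independent of the values above, and they were not tested. Over all tested genes above 5 kb, the median of cKO over WT was -0.38 in NT and 0.22 after LPS, and Kdm5a among genes of like length was at -0.47 and 0.31. Rcor1 among genes of like length was at -0.38 and 0.24, the second of which lies inside the 1.2-fold line. For LPS over NT, Chd4 among genes of like length was at 0.32 in WT and 0.64 in cKO cells, higher in both.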

How the results depend on the processing

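No paired analysis was possible because the groups compared share no more than replicate number 1. With 1 library in each group no replicate could be left out, and every count here rests on single libraries. Among the 10 genes, 81 recounts of calls stayed within 1.5 times the value given. Another 9 with a higher fold and 5 among genes of like length did not. The recounts compare the number called and not its direction. Among genes of like length, LPS over NT in WT went from 2 higher and 4 lower to 7 and 2. D/E-A went from 5 and 0 to 3 and 4 there, and Zmynd8 KO from 4 and 0 to 2 and 2. Recounts with no filter could not change, since the genes counted already passed it. With a fold of at least 1.5, the genes called for cKO over WT numbered 3 in NT, 1 after LPS and 0 after IL-4. Of all genes, 17.9%, 6.67% and 8.04% were called at this fold. The genes called numbered 4 for LPS over NT in cKO cells (67.7% of all genes) and 4 for IL-4 over NT in WT (33.7%). For the lines they numbered 3 for D/E-A (43.4%), 0 for Zmynd8 KO (42.8%), 2 for K122R (35.9%) and 0 for p65 KO (27.8%). Among genes of like length, they numbered 2 in NT (42.6% of all genes), 2 after LPS (31.0%) and 1 after IL-4 (30.5%). They numbered 4 there for IL-4 over NT in cKO cells (65.5%) and 1 for p65 KO (42.2%). With TPM, 2 of the 5 genes nearest to Zmynd8 were the same.

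Of the fold changes of single genes recomputed with another scaling, pseudocount or centring, 402 stayed within the 95% limits on the reads, 206 moved past them and 7 called ones changed sign. Among genes of like length, Kdm5b (0.19) and Kdm5c (0.0173) in NT, Kdm5a (0.21) and Chd4 (0.32) for LPS over NT in WT and Kdm5a for D/E-A (-0.18) changed sign, and Chd4 for LPS over NT in WT also did by the median ratio (0.19) and by TMM (0.16). The alternative is built to remove a trend with length, and the cause of that trend was not tested. The share of higher among all calls also moved for cKO over WT after LPS, from 62.8% to 51.4% by the median ratio, in NT from 46.3% to 22.0% with TPM, and for IL-4 over NT from 64.1% to 50.3% in WT and from 63.1% to 50.7% in cKO cells. Depth limits most the values of Hdac2 after LPS, with 226 and 233 counts, of Kdm5b in K122R cells, with 109 reads, and of Zfp687 and Kdm5b in NT.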

Other observations

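Genes of the Y chromosome differed among the 3 p65 lines. Ddx3y had 400 reads in WT p65, 677 in p65 KO and 1810 in K122R cells, Eif2s3y had 253, 349 and 846, and Uty had 112, 153 and 370. Kdm5d, the Y-linked KDM5 gene, followed the same order with 104, 207 and 469 reads, and on the deposited values it was 2.22 higher on the log2 scale in K122R than in WT p65 cells (limits 1.92 to 2.55). Each line has 1 library, so the spread between cultures of a line is not known.

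Xist also varied among BMDM libraries, with 19386 counts in WT NT, 7310 in cKO NT, 6133 in WT LPS, 10046 in cKO LPS, 31447 in WT IL-4 and 27605 in cKO IL-4. Leaving Xist, Lyz1 and Lyz2 out of the library totals left the count of the 10 genes called as it was in all 7 BMDM comparisons.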
